A study of Mus musculus with 94 samples.

Results

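The genes of glycolysis were examined in single PV-ADSCs, the mesenchymal stem cells of perivascular adipose tissue. The genes were described over all cells and in those with high and low values of *Dcn*, the gene of the matrix proteoglycan decorin. The members were *Slc2a1*, *Hk1*, *Gpi1*, *Aldoa*, *Tpi1*, *Gapdh*, *Pgk1*, *Pgam1*, *Eno1* and *Ldha*, taken by name, and all 10 had a row among the 16069 genes of the table. The cells came from the fat around the thoracic aorta of mice of strain c57/bl, aged 8 weeks. They were released with collagenase I, sorted as CD144-/CD45-/CD29+/Sca1+ and sequenced without culture, with no treatment or genetic change, and each library was made from the full-length cDNA of 1 cell. The series describes 94 cells, of which 85 were in the table and the others were not analysed here. As the labels tie no cell to an animal, the cells together form 1 sample. No test between cells was therefore computed, and every difference below is a description of these cells.

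A cell was called stromal when its deposited *Dcn* value was at least 1000, which gave 58 stromal cells and 27 other cells. The highest *Dcn* values among the other cells were 239 and 269, and the lowest among the stromal cells were 6521 and 11185. The stromal cell at 6521 held only 69 *Dcn* reads, because its values had been multiplied by a large factor. It was also the shallowest cell, with 1146945 reads, and no stromal marker reached 100 reads in it, so its class is doubtful. At least 4 of the 12 stromal markers, including *Dcn*, which set the classes, reached 100 reads in 57 stromal cells and 0 other cells. At least 3 of the 15 endothelial markers did so in 24 other cells and in 1 stromal cell. *Cdh5*, which encodes the sorted-out antigen CD144, had at least 10 reads in 21 of 27 other cells and in 1 of 58 stromal cells, so most of the other cells held transcripts of an antigen the sort was to remove. *Ly6a* (Sca1) had at least 10 reads in 52 stromal and 20 other cells, and *Itgb1* (CD29) in 34 and 12. Reads per cell, recovered from the deposited values, had a median of 2963854 in stromal cells and 2714449 in other cells. Genes above 0 per cell differed more, with a median of 2813 (850 to 4148) in stromal cells and 1416 (285 to 2278) in other cells.

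Glycolysis splits glucose into pyruvate in the cytosol and yields ATP and NADH without oxygen. Glucose enters through transporters such as that encoded by *Slc2a1*, is trapped by hexokinase, rearranged, cleaved into triose phosphates and oxidised by GAPDH, after which phosphoglycerate kinase, phosphoglycerate mutase, enolase and pyruvate kinase release ATP and pyruvate. Lactate dehydrogenase then turns pyruvate into lactate and restores NAD. Several of these genes are known targets of hypoxia-inducible factors (HIFs), which bind DNA at a short core that starts ACGTG or GCGTG.

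All 10 members were present in a larger share of the stromal cells than of the other cells, but their summed levels did not follow one direction. *Gapdh*, *Aldoa* and *Ldha* were the members found in most stromal cells, at 84.5%, 68.97% and 62.1%, and *Gapdh*, *Ldha* and *Aldoa* led among the other cells, at 48.1%, 44.4% and 18.5%. *Slc2a1*, *Pgk1* and *Pgam1* had no read in any other cell. Such absence was common, as 8878 of all 16069 genes had no other cell with at least 10 reads. *Ldha* was the member with most reads in both classes and had the higher summed level in the other cells. The share of cells with at least 10 reads was above that of the other cells for 10 of 10 members, with a median difference of 19.7 percentage points. The same held for 86.8% of the 6127 genes above 0 in at least 10 cells, with a median of 16.99 points. The members thus lay close to those genes. Over all 16069 genes it held for 75.9%, with a median of 3.45 points.

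**Figure D1:**
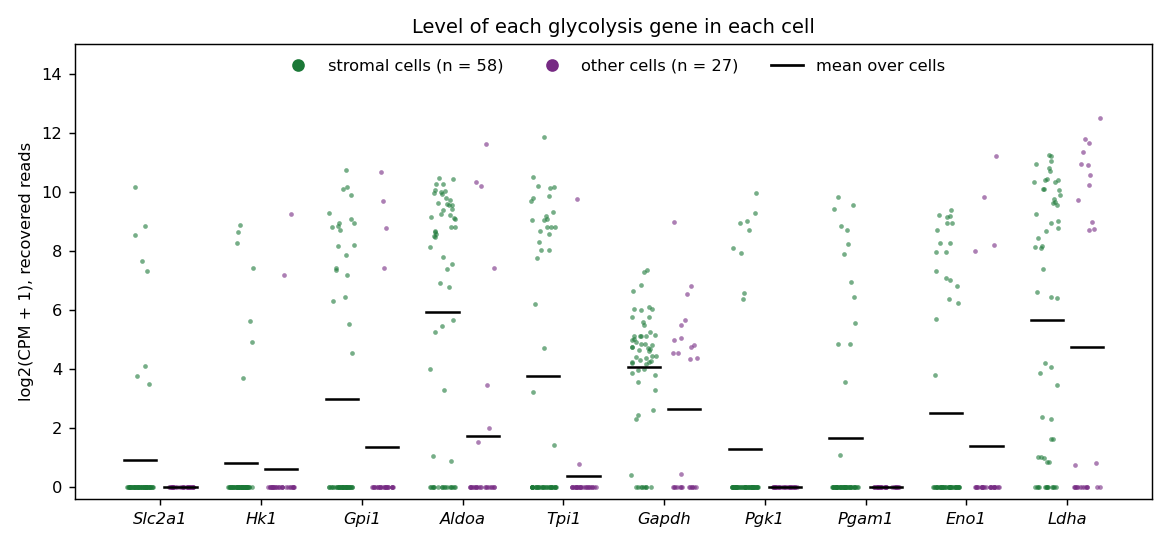
Level of each member in each cell, as log2(CPM + 1), where CPM is the recovered reads of a gene scaled to a fixed total per cell; each point is 1 cell, green for stromal (58) and purple for other cells (27), and black lines are means over cells. Most cells lie either at 0 or well above it, and where detected the median stromal level was 25.99 CPM for *Gapdh*, 558 CPM for *Aldoa* and 771 CPM for *Ldha*.

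To give the sequence context of the genes without reads in the other cells, the bases just upstream of their starts are shown beside those of *Ldha*. With overlapping cores counted separately, *Ldha* held the most HIF cores of all members. The sequences are from RefSeq, build GRCm38.p6, and each is the 250 bases before the start of transcription, read towards the gene. Capitals mark ACGTG or GCGTG or their reverse complements CACGT and CACGC, and overlapping cores run together.
Slc2a1, chr4:119108495-119108744, plus strand: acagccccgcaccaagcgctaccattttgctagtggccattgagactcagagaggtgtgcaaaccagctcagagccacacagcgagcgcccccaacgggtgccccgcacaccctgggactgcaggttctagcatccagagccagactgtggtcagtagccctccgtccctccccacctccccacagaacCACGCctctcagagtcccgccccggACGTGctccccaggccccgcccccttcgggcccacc
Pgk1, chrX:106186850-106187099, plus strand: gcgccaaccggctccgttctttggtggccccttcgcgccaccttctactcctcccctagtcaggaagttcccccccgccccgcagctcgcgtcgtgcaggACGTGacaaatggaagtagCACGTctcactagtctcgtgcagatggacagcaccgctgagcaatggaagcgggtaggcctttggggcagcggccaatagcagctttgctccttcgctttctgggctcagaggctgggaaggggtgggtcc
Pgam1, chr19:41911621-41911870, plus strand: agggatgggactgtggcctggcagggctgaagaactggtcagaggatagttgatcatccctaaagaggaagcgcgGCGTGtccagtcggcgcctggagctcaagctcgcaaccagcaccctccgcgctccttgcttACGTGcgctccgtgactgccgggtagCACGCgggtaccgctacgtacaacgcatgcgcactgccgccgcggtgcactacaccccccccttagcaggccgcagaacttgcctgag
Ldha, chr7:46845554-46845803, plus strand: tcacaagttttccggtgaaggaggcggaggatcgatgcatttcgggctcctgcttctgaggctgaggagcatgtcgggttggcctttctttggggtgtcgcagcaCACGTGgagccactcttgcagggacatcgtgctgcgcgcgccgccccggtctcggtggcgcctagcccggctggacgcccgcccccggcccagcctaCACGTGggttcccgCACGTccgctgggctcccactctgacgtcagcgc

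The upstream bases of *Slc2a1* and *Pgk1* held 2 cores each, those of *Pgam1* held 3 and those of the *Ldha* start shown held 5. Each CACGTG of *Ldha* counts as 2 overlapping cores, and in separate stretches *Ldha* held no more than *Pgam1*. A core was found before at least 1 start of 8 of the 10 members, and *Gpi1* and *Tpi1* had none in their windows. Of all 32851 windows of this length in the table, 38.6% held a core, and 41.5% of 27025 genes held one before at least 1 start. A match in these letters is not a bound site, and the data hold no measurement of binding.

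*Slc2a1*, the main basal glucose transporter of many cell types, was rare. It had reads in 8 of 58 stromal cells (13.8%, exact 95% interval 6.15 to 25.4), where reads ranged from 24 to 3534 with a median of 437.5. In the other cells it had 0 reads in 27 of 27, which allows a share of up to 11.1% by a limit of 3 cells (12.8% by the exact interval). One stromal cell held 54.1% of all its reads, and the summed level was 38.2 CPM (37.3 to 39.2) in stromal cells. Intervals of shares and of summed levels cover counting error only and do not cover the spread between cells or animals.

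Among hexokinases, *Hk1* was found in few cells of either class and *Hk2* in most stromal cells. *Hk1* had at least 10 reads in 7 stromal cells (12.1%, 4.99 to 23.3) and in 2 other cells (7.41%, 0.910 to 24.3), and its summed levels were 23.4 and 25.7 CPM. Of the reads of *Hk1* in other cells, 78.6% came from 1 cell, and without that cell the summed level was 4.12-fold higher in stromal cells instead of 1.09-fold lower. *Hk2*, an isozyme that is no member of the set but catalyses the same step, had at least 10 reads in 37 stromal cells (63.8%, 50.1 to 76.01) and in 0 of 27 other cells, where 6 reads were found in all. Its summed level was 272 CPM in stromal cells and 0.0839 CPM in other cells, where 4 of the 6 reads were in 1 cell, and the lowest, median and highest reads over stromal cells were 0, 195 and 7611. Both hexokinases were found together in 4 stromal cells, *Hk2* alone in 33, *Hk1* alone in 3 and neither in 18.

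*Gpi1*, which converts glucose 6-phosphate to fructose 6-phosphate, had at least 10 reads in 21 stromal cells (36.2%, 23.99 to 49.9) and in 4 other cells (14.8%, 4.19 to 33.7). Where detected, the median was 1137 reads in stromal cells and 1519.5 in other cells. The summed levels were 185 and 126 CPM, a 1.46-fold difference that rose to 3.61-fold when the other cell with most *Gpi1* reads was left out. It turned, from a log2 ratio of 0.55 to one of -5.60, among the cells with the range of gene numbers held by both classes (850 to 2278 genes, 9 stromal and 24 other cells). *Aldoa*, which cleaves fructose 1,6-bisphosphate, was much more widespread in stromal cells. Its lowest, median and highest reads were 0, 873 and 5128 in stromal cells and 0, 0 and 8436 in other cells. At least 10 reads were found in 40 stromal cells (68.97%, 55.5 to 80.5) and 5 other cells (18.5%, 6.30 to 38.1). The summed levels of *Aldoa* were 401 and 223 CPM, a 1.80-fold difference, and 53% of the reads in other cells came from 1 cell. Without that cell the difference was 3.68-fold, whereas in the shared range of gene numbers the log2 ratio of *Aldoa* turned from 0.85 to -1.64. The groups overlapped for *Gpi1* and for *Aldoa*, as the highest cell of each was an other cell in reads.

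*Tpi1*, which interconverts the triose phosphates, had the largest ratio of summed levels among the members found in both classes. It had at least 10 reads in 25 stromal cells (43.1%, 30.2 to 56.8), with 27 to 4204 reads, and in 1 other cell (3.70%, 0.0937 to 18.97), with 1489 reads. The summed levels were 261 and 20.9 CPM, 12.5-fold higher in stromal cells. That value rested on few cells. The other cell with 1489 reads held 99.87% of the *Tpi1* reads of its class, and without it 2 reads were left. The stromal cell with most reads was the doubtful one described above, and with it placed among the other cells the log2 ratio fell from 3.65 to 1.60.

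*Gapdh*, which oxidises glyceraldehyde 3-phosphate and is widely used as a reference gene, was the most widespread member, with few reads in most cells that had it. At least 10 reads were found in 49 stromal cells (84.5%, 72.6 to 92.7) and in 13 other cells (48.1%, 28.7 to 68.1). The lowest, median and highest reads were 0, 67 and 353 in stromal cells and 0, 1 and 1586 in other cells. Only 15 stromal cells and 5 other cells reached 100 reads. The summed level of *Gapdh* was 28.9 CPM in stromal cells and 40.4 CPM in other cells, where 1 cell held 54.9% of the reads. Without that cell the level in the *Gapdh* row was 1.52-fold higher in stromal cells, so the direction in that row rested on it.

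*Pgk1* and *Pgam1*, which encode the next 2 enzymes, were found in stromal cells only at this depth. *Pgk1*, which makes ATP from 1,3-bisphosphoglycerate, had 235 to 3800 reads in 9 stromal cells (15.52%, 7.35 to 27.4) and none in 27 other cells. *Pgam1*, which moves the phosphate of 3-phosphoglycerate, had 4 to 2364 reads in 14 stromal cells, with at least 10 in 13 of them (22.4%, 12.5 to 35.3), and none in 27 other cells. Both zeros allow the same shares as that of *Slc2a1*. The summed levels in stromal cells were 74.4 CPM for *Pgk1* and 63.4 CPM for *Pgam1*. With the other cells set to 3 reads, the stromal-to-other ratio of summed levels was 911 for *Slc2a1*, 1773 for *Pgk1* and 1511 for *Pgam1*. These values hang on that floor and are no lower limit of the difference between the classes, as the zeros allow shares up to 11.1%. Without the stromal cell with most *Slc2a1* reads, its ratio was 426.

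*Eno1*, which makes phosphoenolpyruvate, had at least 10 reads in 19 stromal cells (32.8%, 21.01 to 46.3) and in 4 other cells (14.8%, 4.19 to 33.7). Its summed levels were 108 and 140 CPM, and 69.6% of the reads in other cells came from 1 cell with 6987 reads. Without that cell *Eno1* was 2.43-fold higher in stromal cells, so its direction also turned. *Ldha*, the lactate dehydrogenase subunit that favours lactate, had at least 10 reads in 36 stromal cells (62.1%, 48.4 to 74.5) and 12 other cells (44.4%, 25.5 to 64.7). Its lowest, median and highest reads were 0, 308.5 and 8646 in stromal cells and 0, 2 and 13797 in other cells. Where detected, the median was 771 CPM in 36 stromal cells and 1713 CPM in 12 other cells. The summed levels of *Ldha* were 531 and 805 CPM, 1.52-fold higher in other cells, and leaving out any 1 cell gave 1.19-fold to 1.64-fold in the same direction. Thus *Ldha* was found in a smaller share of the other cells but was higher in those that had it. This was not particular to *Ldha*, as it held for every member found in both classes. Where detected, the medians in stromal and other cells were 558 and 1162 CPM for *Aldoa*, 248 and 600 for *Eno1* and 25.99 and 30.6 for *Gapdh*. *Ldhb*, the other subunit, was found in 11 stromal cells, 9 of which also had *Ldha*, and had 0 reads in the other cells.

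By the rule fixed for counting, a gene was counted when it was above 0 in at least 10 cells and its summed CPM differed at least 2-fold. Of the 7 members that passed, 2 were higher in stromal cells (*Tpi1* and *Pgam1*), compared with 47.9% of the 6127 genes that passed. In other cells 0 were higher, compared with 16.3%. *Tpi1* and *Pgam1* were above 0 in 26 and 14 stromal cells but in 2 and 0 other cells. They thus passed the filter through stromal cells, and the filter favoured this direction for them. The median log2 ratio was 0.55 for those 7 members and 0.90 for all genes that passed. By shares of cells, 3 of the 7 were at least 25 points higher in stromal cells (*Aldoa*, *Tpi1* and *Gapdh*), compared with 29.8% of genes, and 0 were so in other cells, compared with 1.4%. Neither count set the members apart from the genes that passed. *Slc2a1*, *Hk1* and *Pgk1* were above 0 in fewer than 10 cells and did not pass.

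Per length of the longest coding transcript, the summed level in stromal cells was highest for *Ldha* at 292 CPM per kb, followed by *Aldoa* at 259 and *Tpi1* at 163. *Gpi1* at 63.98, *Eno1* at 53.4, *Pgk1* at 40.8 and *Pgam1* at 35.7 formed a middle range. *Gapdh* at 20.4, *Slc2a1* at 11.7 and *Hk1* at 5.48 were lowest, whereas *Hk2* stood at 49.3. The spread between cells was wide. On the log2(CPM + 1) scale, not scaled to length, the mean ± SD over 58 stromal cells was 5.93 ± 4.21 for *Aldoa*, 5.67 ± 4.39 for *Ldha* and 4.08 ± 2.01 for *Gapdh*. By these means *Aldoa* stood above *Ldha*, by less than either SD, so their order depended on the measure. In 27 other cells the means were 1.72 ± 3.61, 4.73 ± 5.33 and 2.64 ± 2.90.

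When isozymes were joined into the steps of the pathway, the hexokinase step differed most between the classes. Hexokinase was found in 40 stromal cells (68.97%, 55.5 to 80.5) and in 2 other cells (7.41%, 0.910 to 24.3), owing to *Hk2*. Phosphofructokinase, the committed step, was found in 20 stromal cells (34.5%) and 5 other cells (18.5%), and its isozyme with most reads was *Pfkp*. Pyruvate kinase was found in few cells of either class, with *Pkm* in 7 stromal and 2 other cells. Lactate dehydrogenase was found in 38 stromal cells (65.5%, 51.9 to 77.5) and 12 other cells (44.4%, 25.5 to 64.7), and these intervals overlapped. No cell held reads for all 12 steps. The median was 5 steps in stromal cells (1 to 9) and 2 in other cells (0 to 4).

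**Figure D2:**
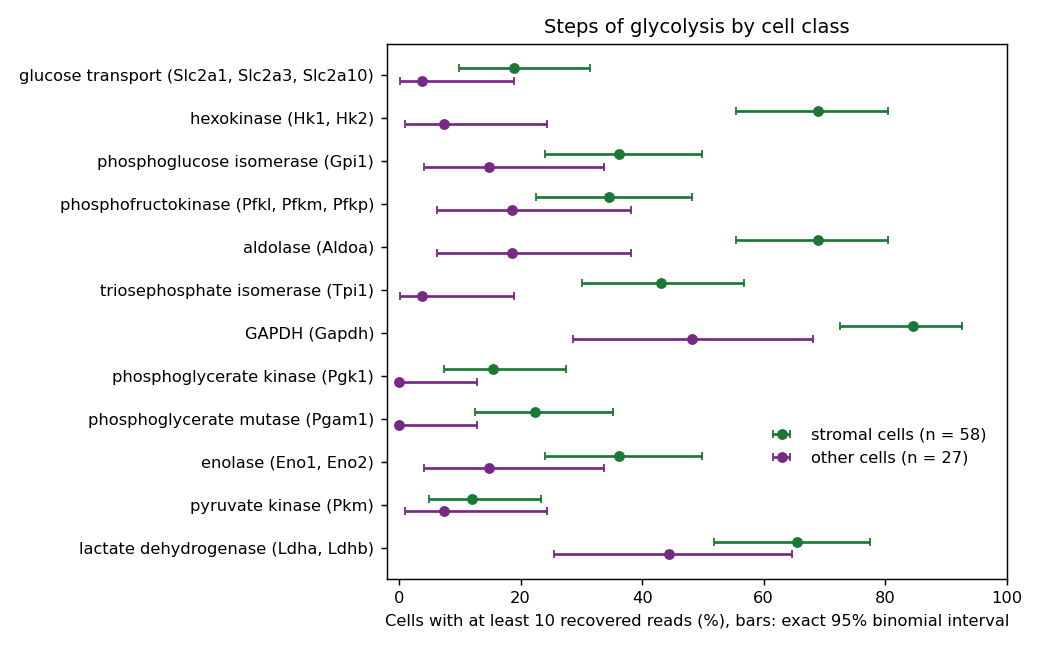
Share of cells with at least 10 recovered reads for any gene of each step, in pathway order, for stromal (green) and other cells (purple); bars are exact 95% binomial intervals. The intervals cover counting error only and are no test between the classes, which also differed in genes per cell. They are apart for hexokinase, aldolase, triosephosphate isomerase and GAPDH.

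The number of members found per cell followed the number of genes found per cell. At a level of 10 reads, stromal cells had a median of 4 members (1 to 7; mean 3.91 ± 1.74, SD, n = 58 cells) and other cells a median of 1 (0 to 4; 1.52 ± 1.09, n = 27 cells). At least 4 members were found in 34 stromal cells and in 1 other cell, and 5 other cells had none. These 5 had only 285 to 1069 genes above 0. Among cells with at least 1000 genes, the median was 4 members in stromal cells and 2 in other cells. In the median cell, 40% of members and 30.9% of the 6127 genes had at least 10 reads among stromal cells, compared with 10% and 12.7% among other cells. Over 58 stromal cells, members per cell and genes per cell had a Spearman rho of 0.68, whereas members per cell and reads per cell had one of 0.20. Both measures come from the same libraries.

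The higher number of members in stromal cells was not seen among the cells in the range of gene numbers that both classes held, 850 to 2278. There were 9 stromal cells in it with a median of 1 member (1 to 4; mean 1.67 ± 1.12, SD) and 24 other cells with a median of 2 (0 to 4; 1.71 ± 0.999). The stromal cells still had more genes there, with a median of 2053 compared with 1463.5, and the lower end of the range was the doubtful cell. In this range *Aldoa* was found in 1 of 9 stromal and 5 of 24 other cells, *Ldha* in 3 and 12, *Gpi1* in 1 and 4, *Eno1* in 0 and 4, and *Slc2a1*, *Pgk1* and *Pgam1* in none of either. *Gapdh* was found in 7 of 9 stromal cells and 13 of 24 other cells, *Tpi1* in 2 and 1, and *Hk1* in 1 and 2, so their shares were higher in stromal cells. *Hk2* still differed there, in 4 of 9 stromal cells and 0 of 24 other cells. Thinning all cells to 1146945 reads left both medians at 4 and 1.

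**Figure D3:**
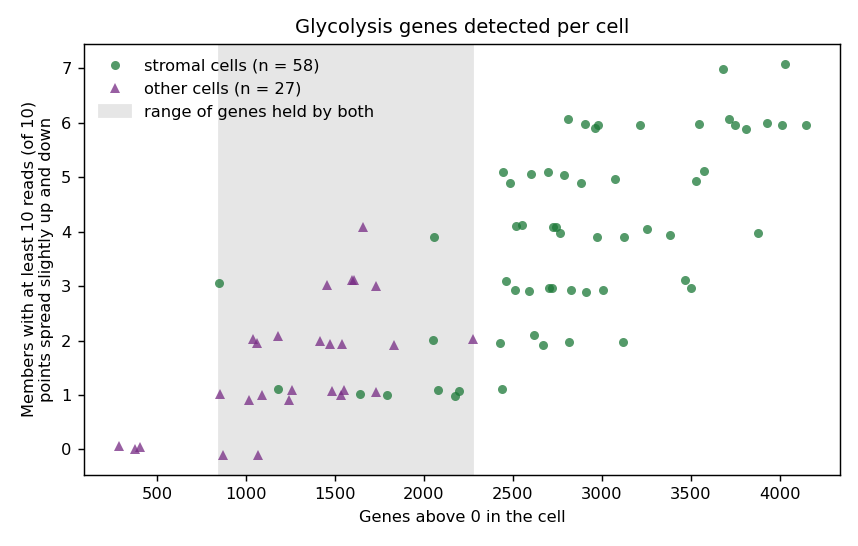
Number of members with at least 10 reads in each cell against the number of genes above 0 in that cell, for stromal (green circles) and other cells (purple triangles). In the shaded range of genes held by both classes the points of both lie between 0 and 4 members.

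Several members have near copies in the genome, and reads from the sequence they share cannot be told apart. Of the 50-base words in the longest coding transcript, 82.5% of those of *Gapdh*, 72.2% of *Eno1*, 67.96% of *Pgk1* and 41.5% of *Pgam1* also occurred in transcripts of other annotated genes. For *Hk1*, *Slc2a1* and *Tpi1* the share was 2.55%, 1.74% and 7.51%, and for *Hk2* it was 0%. The table had rows for 44 near copies of *Gapdh*, which together held 47547 reads, 6.07 times the 7828 reads of *Gapdh* itself. The largest were *Gm5559* with 11983 reads, *Gm7336* with 9104 and *Gm12070* with 6123. *Gm5559* had at least 10 reads in 47 stromal and 13 other cells, against 49 and 13 for *Gapdh*. Over 58 stromal cells, reads of *Gapdh* and of its copies had a Spearman rho of 0.72, and over 27 other cells one of 0.89. Where *Gapdh* had at least 10 reads, the copies held more reads in 44 of 49 stromal cells and 13 of 13 other cells.

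With the copies added, the summed level of *Gapdh* was 191 CPM in stromal cells and 319 CPM in other cells. At least 100 reads were then reached in 45 stromal and 13 other cells instead of 15 and 5. The other cell with 54.9% of the *Gapdh* reads of its class held 2821 of the 19906 reads of the copies there. It thus dominated the row of *Gapdh* but not the copies. The values of *Gapdh* are therefore uncertain, and with the copies added its level per length in stromal cells was 134 CPM per kb, between those of *Tpi1* and *Gpi1*. For *Eno1*, the rows of *Eno1b* and *Gm4735* held 2502 and 1992 reads beside 28524. For *Pgk1* and *Pgam1* the copies held 739 and 517 reads, none of which gave an other cell with at least 10 reads.

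**Figure D4:**
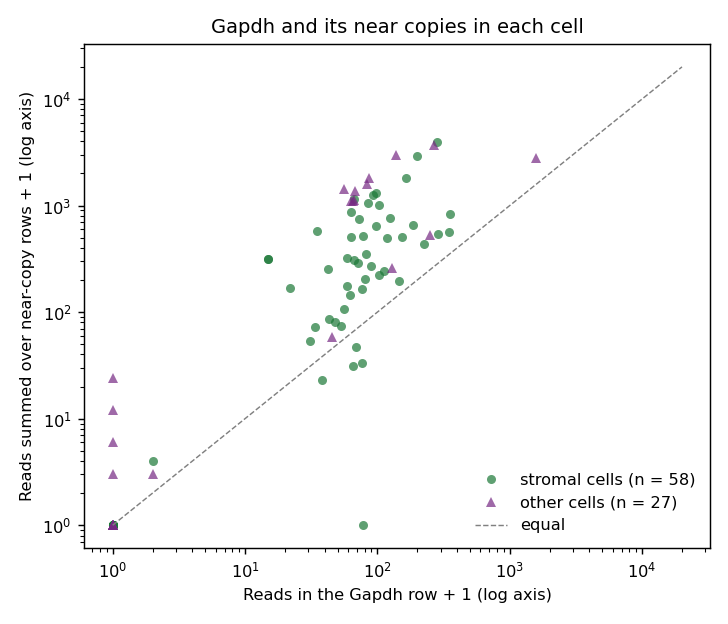
Reads in the row of *Gapdh* against reads summed over 44 near-copy rows in each cell, both plus 1 and on log axes, for stromal (green circles) and other cells (purple triangles); the dashed line marks equal numbers. Most cells with *Gapdh* reads lie above the line.

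As a set, the members did not rise and fall together among stromal cells, though some pairs were often found together. Over the 21 pairs of the 7 members above 0 in at least 10 cells, the Spearman rho of log2(CPM + 1) ranged from -0.24 to 0.41 with a median of 0.03, as a description over 58 cells. The rho was above 0 for 11 of the 21 pairs. The highest was between *Gpi1* and *Eno1*, which were found together in 12 stromal cells, and the lowest between *Gpi1* and *Tpi1*. *Aldoa*, found in 40 stromal cells, was found in all 21 stromal cells with *Gpi1* and in 18 of 19 with *Eno1*. The summed level of the 10 members had a median of 1425 CPM in stromal cells (13.4 to 4530) and 799 CPM in other cells (0 to 5800), and the ranges overlapped almost entirely. By the mean of log2(CPM + 1) over members, the 5 most similar of 2702 genes were *Tmem234* (rho 0.54), *Gpx1* (0.52), *Thbs2* (0.48), *Ywhaz* (0.47) and *Glmp* (0.47). These values are low in sparse data, and the mean of the members itself had a rho of 0.59 with genes per cell.

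Around the pathway, several genes of pyruvate entry, glycogen and the pentose phosphate branch were found mainly in stromal cells. *Mpc1* and *Mpc2*, the subunits of the mitochondrial pyruvate carrier, had at least 10 reads in 29 and 35 stromal cells and in 2 and 1 other cells. *Ugp2*, which makes UDP-glucose, was found in 31 stromal cells and *Pygl*, a glycogen phosphorylase, in 13, with 0 of 27 other cells for each. *G6pdx* and *H6pd*, which open the pentose phosphate branch in the cytosol and the endoplasmic reticulum, were found in 14 and 18 stromal cells and in 0 other cells. The genes of these lists did not all differ so in summed level. *Dld*, a subunit of the pyruvate dehydrogenase complex, stood at 108 CPM in stromal and 165 CPM in other cells, *Taldo1* at 69.5 and 58.1 CPM and *Gbe1* at 60.6 and 50.5 CPM. Without the other cell with most *Dld* reads, *Dld* was 1.60-fold higher in stromal cells. *Taldo1* was 4.07-fold higher in stromal cells when the other cell with most *Taldo1* reads was left out. *Gbe1* had at least 10 reads in 6 stromal cells and 1 other cell, and without that other cell it was 1037-fold higher in stromal cells. Each of these comparisons thus rested on 1 other cell. *Pdhx*, another subunit, was found in 5 stromal cells (8.62%) and 3 other cells (11.1%). In the list of pyruvate regulators 4 of 5 genes that passed were at least 2-fold higher in stromal cells, in the glycogen list 4 of 5 and in the pentose phosphate and glycerol list 4 of 6, and 0 were higher in other cells in any of the 3. The tricarboxylic acid cycle list was mixed, with 4 of 14 higher in stromal cells and 4 of 14 in other cells. There *Mdh1* stood at 257 and 255 CPM and *Mdh2* at 179 and 423 CPM in stromal and other cells. *Mdh1* was 3.52-fold higher in stromal cells without the other cell with most reads. Without 1 stromal cell it was 1.12-fold higher in other cells. Counts of lists this short are read against 47.9% and 16.3% over all genes that passed, and the classes also differed in genes per cell. The zeros in other cells are read against 8878 of all 16069 genes that had no other cell with at least 10 reads.

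Among transport genes, *Bsg*, the chaperone of lactate carriers, was found in 49 stromal cells (84.5%) and 10 other cells (37.04%), at 848 and 364 CPM. *Slc16a1*, a lactate carrier, was found in 10 stromal and 3 other cells, and its summed level was 269 CPM in other cells against 46.5 CPM in stromal cells. Of its reads in other cells 72.5% came from 1 cell, and without that cell the 5.79-fold difference fell to 1.66-fold. Other glucose transporters were found in few cells, with *Slc2a3* in 1 stromal cell and *Slc2a10* in 2 stromal and 1 other cell. In gluconeogenesis, *G6pc3* and *Pck2* were found in 3 and 6 stromal cells and in 1 other cell each.

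**Figure D5:**
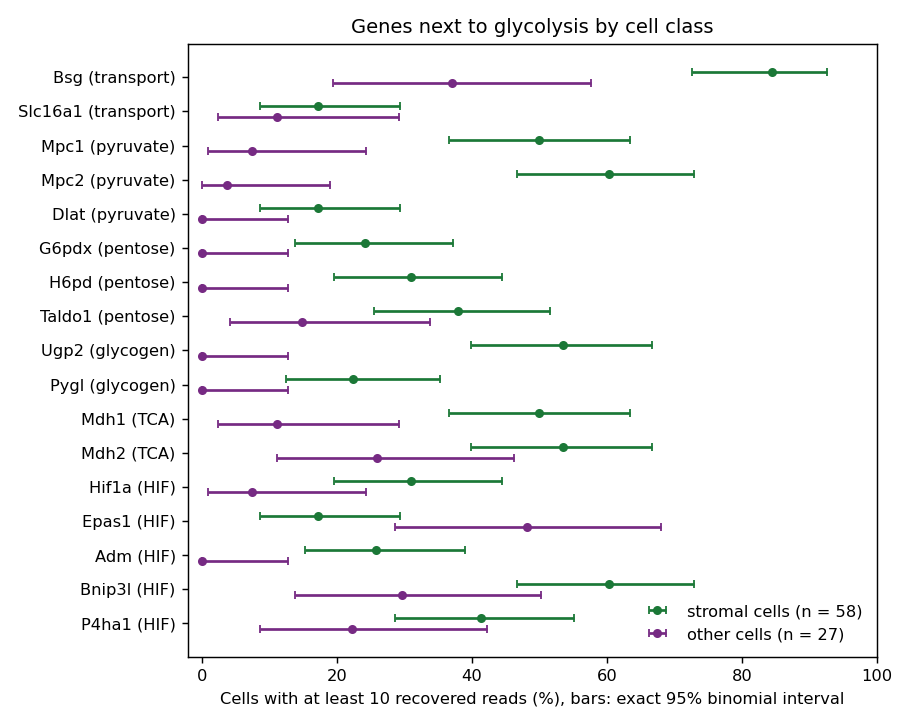
Share of cells with at least 10 recovered reads for genes next to glycolysis, for stromal (green) and other cells (purple); bars are exact 95% binomial intervals. *Epas1* is the gene shown with the higher share in other cells.

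The HIF genes themselves differed in opposite directions. *Hif1a* had at least 10 reads in 18 stromal cells (31.03%, 19.5 to 44.5) and 2 other cells (7.41%, 0.910 to 24.3), at 123 and 4.60 CPM. *Epas1*, which encodes HIF-2α and is abundant in endothelium, had at least 10 reads in 10 stromal cells (17.2%, 8.59 to 29.4) and 13 other cells (48.1%, 28.7 to 68.1), at 51.3 and 397 CPM. The *Hif1a* ratio of 26.8-fold lay between 18.9-fold and 87.2-fold, and the *Epas1* ratio of 7.73-fold between 6.20-fold and 12.7-fold, when any 1 cell was left out. Of the 11 hypoxia genes that passed, 4 were at least 2-fold higher in stromal cells and 2 in other cells. Their median log2 ratio was 0.38, compared with 0.90 over all genes that passed. *Adm*, a secreted vasodilator peptide, was found in 15 stromal and 0 other cells and *P4ha2*, a collagen prolyl hydroxylase, in 13 and 0. *Bnip3*, a mitophagy receptor, was found in 7 and 0, whereas *Bnip3l* was found in 35 and 8 and *P4ha1* in 24 and 6. The level of *Hif1a* and the number of members per cell had a Spearman rho of 0.03 over 58 stromal cells.

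Genes that respond to tissue dissociation were high in both classes. Their summed level had a median of 16834 CPM in stromal cells and 20152 CPM in other cells. *Fos* stood at 6872 and 3893 CPM, *Egr1* at 1711 and 1512, and *Dusp1* at 1623 and 1204, whereas *Hspa1a* and *Hspb1* were higher in other cells at 1311 and 2534 CPM against 65.3 and 292. *Nr4a1* was higher in stromal cells, at 304 and 28.1 CPM. Their part in the level of the members was not tested, and over stromal cells the rho between dissociation genes and the summed level of the members was 0.24.

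Low numbers of *Dcn* reads were found in the other cells too. *Dcn* had 4 to 248 reads, with a median of 14, in all 27 other cells, at a summed 10.8 CPM compared with 36633 CPM in stromal cells. At 10 reads, 21 of 27 other cells would therefore count as having *Dcn*. The detected members in other cells had at least 20 reads each, and some of these values lay within the range of *Dcn* reads there. For *Gapdh* the median where detected in other cells was 82 reads. The source of such low reads was not tested. Of other cell types, *Adipoq* was found in 1 stromal cell, *Hba-a1* in 2, *Cd68* in 2 and *Upk3b* in 2, none of them in other cells. *Pdgfrb* was found in 18 stromal cells, *Rgs5* in 3 other cells, *Wt1* in 19 stromal cells and *Pcna* in 6 stromal and 2 other cells. The lipid genes *Fabp4*, *Gpihbp1* and *Cd36* of capillary endothelium stood at 20997, 4364 and 3686 CPM in other cells, and *Kdr*, *Cldn5* and *Emcn* at 1126, 1311 and 1089 CPM.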

How the data were processed

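Single PV-ADSCs were sequenced as 1 library per cell. The authors aligned reads to mm9 with HISAT2 (2.0.5), used SAMtools (1.4) and StringTie (1.3.3), and applied scater for quality control and scaling. The program that counted reads is not given in the sources used here. The table the authors deposited gives, for 85 cells, a signal per gene and cell that is a read count after normalization.

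Whole reads were recovered from the deposited values. In 13 groups of genes, holding 5404 genes, each cell had its own factor (0.0157 to 94.5), of which all 144272 values above 0 were whole multiples, to within 5e-09 of the value or 5e-08 of a read, whichever was larger. The other 10665 genes were whole already. A factor rested on fewer than 10 values in 20 of 1105 cases, none of which held a member. This step was devised with the table in view and was tested on simulated data. Recovered reads per cell ranged from 1146945 to 4776510.

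CPM was taken per cell, or over the reads summed within a class. A class with fewer than 3 reads was set to 3 in ratios, and no ratio was given where both were at or under it. Shares have exact Clopper-Pearson intervals and summed reads exact Poisson intervals, at 95%. Cells are not replicates, and no test was run. Near copies were genes whose annotated transcripts hold at least 20% of a member's 50-base words (GENCODE vM21 transcripts, another build than mm9, so no position of a gene is joined to the table). Alternatives were other *Dcn* thresholds, filters, folds, detection levels, scalings, thinning and leaving out cells. The named genes were all members, their isozymes, the sort genes, *Dcn*, the 5 genes most like the members, and up to 3 genes of each further list with the highest summed level and up to 3 with the largest difference, with *Hif1a*, *Epas1*, *Gm5559*, *Gm7336*, *Gm12070*, *Eno1b*, *Gm4735* and *Pdhx* named after their values were seen. *Ptprc* was not analysed here. The members and lists were chosen with earlier results of these data known. Python 3.11.15, numpy 2.4.6, pandas 2.3.3, scipy 1.17.1 and matplotlib 3.10.9 were used.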

Additional observations from a re-analysis of the deposited data

How the results depend on the processing

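Of the 2 members counted as higher in stromal cells, the number became 4 with the filter at 3 cells or with no filter, as *Slc2a1* and *Pgk1* then entered, and leaving out each cell in turn gave 2 to 3. The number higher in other cells was 0, and became 1 at a fold of 1.5 (*Ldha*). Among cells in the range of genes held by both classes, an alternative chosen after seeing the data, 2 members passed the filter, 0 were higher in stromal cells and 1 in other cells, the median stromal cell had 1 member, and the median summed level of the members in stromal cells fell to 114 CPM. The cause was not tested. There *Gpi1* and *Aldoa* had log2 ratios of -5.60 and -1.64, *Hk1* and *Gapdh* of 0.77 and 0.45, each opposite in sign to that over all cells. The other alternatives moved neither number of members by more than 1.5 times, nor a median of members per cell or of their summed level by more than 1 SD over cells. The shares of single members depended on the detection level: at 100 reads *Gapdh* was found in 25.9% of stromal and 18.5% of other cells, and *Slc2a1* in 5 stromal cells instead of 8. Scaling to reads outside the 50 highest genes shifted the median log2 ratio of all genes by -0.24, and no member changed sign with it. No paired analysis was possible because all cells form 1 group. Depth limits the zeros to shares of cells, and counting errors do not cover the spread between animals.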
